A study of Mus musculus with 4 samples.

Results

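The genes of the T cell receptor's proximal signalling machinery were examined in regulatory T (Treg) cells with and without the transcription factors Tcf1 and Lef1. The set holds 44 genes chosen by symbol for what their proteins do; the list was drawn up with earlier results of these data known. All 44 were among the 24346 gene rows of the deposited table. By textbook role, 26 promote signalling, 14 restrain it and 4 (Ptprc, Themis, Sh2d2a and Trat1) were placed in neither class, because they act both ways or their net effect is less settled. A row was tested where it had at least 1 FPKM (fragments per kilobase of transcript, scaled to sequencing depth) in at least 2 libraries. All 44 genes passed this filter, as did 11595 rows in all.

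The cells were Thy1.2+ CD4+ Foxp3-Cre-GFP+ splenocytes of male mice 16 weeks old. Both groups carried Foxp3-Cre, a recombinase made in cells that express Foxp3, the defining transcription factor of Treg cells. The control group, labelled wild type (WT), had intact Tcf1 and Lef1 genes, and the other, labelled Tcf1-/-Lef1-/- and called dKO here, had both genes floxed. RNA sequencing covered 2 libraries of each group, WT_0, WT_1, dKO_0 and dKO_1. Whether the libraries of a group came from separate mice is not stated, so the p-values measure the spread between libraries, which may be technical.

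As background, a T cell receptor has no kinase of its own. When it binds a peptide on an MHC molecule, the Src-family kinase Lck phosphorylates the tails of the CD3 and zeta chains, Zap70 docks there and phosphorylates the scaffolds Lat and SLP76, and these assemble the enzymes that release calcium and activate Ras and NFAT. Phosphatases, the kinase Csk, ubiquitin ligases, inhibitory adaptors and diacylglycerol kinases dampen each step. Treg cells need receptor signals for their development and for suppression.

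Relative depth was estimated from the FPKM worth of a single read, read from genes with very low values. By the most common ratio, it was 1.21, 1.22 and 1.31 times that of WT_0 in WT_1, dKO_0 and dKO_1. That ratio was shared by 225 of 1957, 243 of 1936 and 239 of 2015 low genes compared. Any further scaling of the FPKM would enter these estimates, and absolute depths were not determined. Of the deleted genes, Tcf7, which encodes Tcf1, had 309 to 345 FPKM in WT and 247 to 249.6 in dKO, and Lef1 had 59.9 to 66.5 FPKM in WT and 36 to 41.3 in dKO. Both were lower in every dKO library. Neither passed the limma test (adjusted p = 0.158 and 0.113), and a gene-level value also counts exons outside a floxed part. In the authors' deposited table the Cuffdiff q was 0.153 for Tcf7 and 0.00365 for Lef1. Of the defining markers, Foxp3 had 113 and 121 FPKM in WT and 133 and 144 in dKO, and Il2ra 87.8 and 112 in WT and 125 and 126 in dKO, so both were higher in both dKO libraries. Cd4 had 244.5 and 233 FPKM in WT and 219.5 and 215 in dKO, lower in both. None of these passed the test (limma adjusted p = 0.244, 0.301 and 0.359). Over the 6 defining markers, 4 were higher and 2 lower in dKO by their means, with 0 called. Ikzf2 was lower, with 88.8 and 93.9 FPKM in WT and 85.8 and 87.8 in dKO. Ctla4 (122 and 114 in WT, 131 and 134 in dKO) and Tnfrsf18 (246 and 231, 285 and 254) were higher. Of 6 general T cell markers, 3 were higher (Thy1, Cd5 and Cd6) and 3 lower (Tcf7, Bcl11b and Cd27). Tcf7 is itself a deleted gene, so its lower level is no measure of T cell content. Cd27 overlapped between groups, with 227.6 and 192.9 FPKM in WT and 209.0 and 207.5 in dKO. Markers of other cells were also present, and some were as abundant as Foxp3 or more so: over all libraries the myeloid genes Ctss, Cst3 and Lyz2 had 252 to 272, 175 to 204 and 167 to 237 FPKM, and the neutrophil gene S100a8 had 153 FPKM in WT_0 and 30.9 to 41.7 in the others. The summed level of 13 B cell markers was 152 and 56.1 FPKM in WT and 145 and 219 in dKO, with 12 of 12 tested higher in dKO and 11 lowest in WT_1. That of 8 neutrophil markers was 342 FPKM in WT_0 and 67.9 to 107 in the other libraries. Most of it was S100a8 and S100a9 (127 FPKM in WT_0), while Cxcr2 (2.16 to 2.5) and Retnlg (0.598 to 2.02) were highest in dKO_1. In the authors' deposited table, 5 B cell markers were higher and 5 neutrophil markers lower at a q under 0.05, with 0 the other way in either list. For 18 monocyte and macrophage markers the summed level was 1043 and 1214 FPKM in WT and 1010 and 917.5 in dKO, with 17 of 18 lower in dKO. For 12 NK cell markers it was 106 to 126 FPKM, with 9 of 11 tested lower in dKO. Dendritic cell, erythroid and platelet, and CD8 T cell markers summed to 14.8 to 18.8, 8.79 to 16.2 and 8.21 to 10.1 FPKM. No listed marker was at 0 in all libraries, and Cd8a reached at most 1.39 FPKM. Their part in the results was not tested. In sorted bulk cells, fewer cells of a type and less RNA per cell cannot be told apart.

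None of the 44 genes passed the test between dKO and WT. The largest differences were in Cd247, the zeta chain gene, with 1.31 times the WT level in dKO, and in Dgka, a diacylglycerol kinase gene, with 0.759 times. The kinases that start the cascade, Lck and Zap70, differed by less than the spread between libraries of a group. By limma on log2(FPKM + 1), with adjustment over all tested rows, 0 genes were called at an adjusted p under 0.05, where 0.345% of all tested rows were called (40 of 11595). At an unadjusted p under 0.05, 4 genes were higher in dKO (9.09%, against 9.64% of all tested rows) and 2 were lower (4.55%, against 7.08%). The 4 were Cd247, Lat, Cd2 and Grb2, and the 2 were Dgka and Txk. These shares lay close to those of the transcriptome at large. In the authors' deposited table, 0 of the 44 had a q under 0.05, where 3.06% of the tested rows did, and 3 (Cd247, Txk and Dgka) had a p under 0.05, where 9.2% did; the smallest q among them was 0.170, for Dgka.

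The differences between groups were small, and their intervals were narrow by the spread between these libraries. On the log2 scale, the 44 genes had a median difference (dKO minus WT) of 0.011, beside 0.012 for all tested rows. Both turned negative after quantile normalization (-0.040, beside -0.0057 for all tested rows) and median centring (-0.0098, beside -0.0091). The median of the 44 alone turned without WT_1 (-0.017, beside 0.014) or dKO_1 (-0.022, beside 0.013). The median absolute difference was 0.09, beside 0.118 for all tested rows and 0.105 for the 7807 rows at least as abundant as the lowest of the set. In 37 of 44 genes the difference was under 0.2, which is 84.1% of the set and compares with 70.9% of all tested rows and 76.75% of those 7807 rows, most of which are less abundant than the typical gene of the set. The exceptions were Cd247, Cd2, Lat and Ppp3ca, which were higher in dKO, and Dgka, Txk and Rasgrp1, which were lower. For 40 of the 44 genes the 95% confidence interval of the difference lay within 0.5 log2 units of 0. The intervals of all 44 ran from -0.61 (Txk) to 0.55 (Cd247), so each excluded a change of 1 log2 unit. These intervals are for single genes and are not adjusted for their number. They rest on 2 libraries a group and may reflect technical spread only, so they need not bound a difference between mice.

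**Figure D1:**
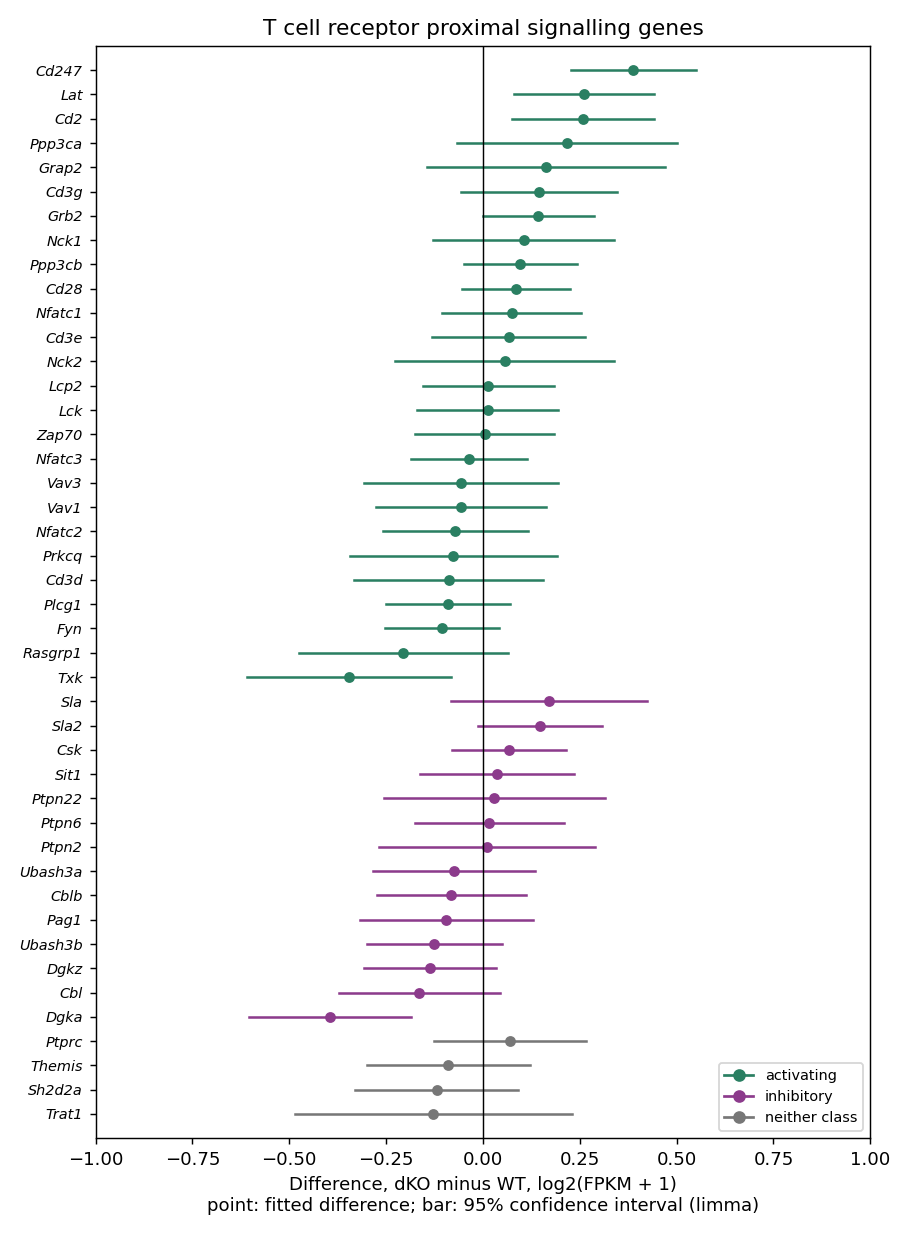
Difference in log2(FPKM + 1), dKO minus WT, for each of the 44 genes (x axis; point, limma estimate; bar, 95% confidence interval), grouped by class, from 2 libraries a group. The bars of 6 genes leave out 0 (Cd247, Lat, Cd2, Grb2, Txk and Dgka), and no gene passed the test adjusted over all rows.

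**Figure D2:**
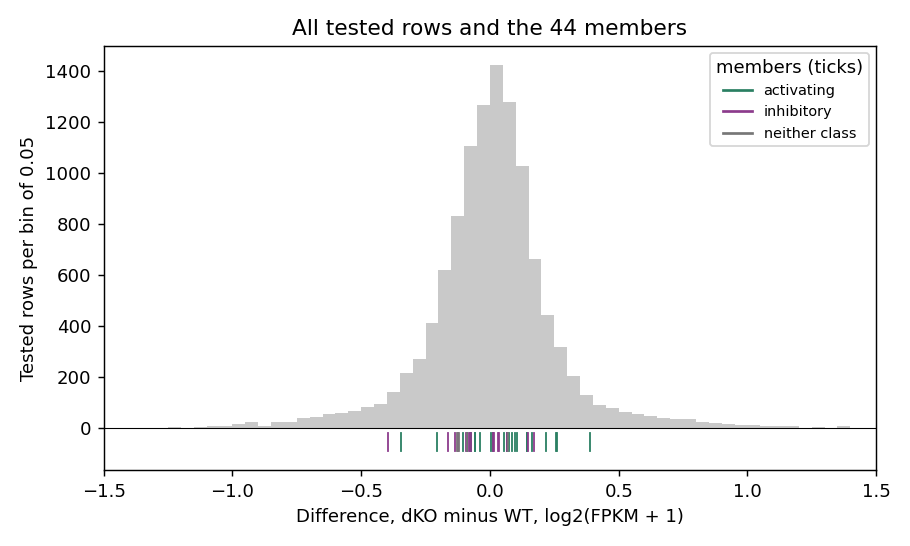
Histogram of the difference in log2(FPKM + 1), dKO minus WT, over tested rows within 1.5 of 0 (y axis, rows per bin of 0.05), with a tick for each of the 44 genes under the axis, coloured by class. The ticks run from -0.39 (Dgka) to 0.39 (Cd247) and sit under the central mass of all rows.

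Gaps between libraries of the same group can be set beside the median absolute difference between group means, 0.09 log2 units. A mean over libraries varies less than a single library, so the sizes of these measures are not directly comparable. The median gap between the WT libraries was 0.110 log2 units over the 44 genes, and that between the dKO libraries 0.0704. The WT and dKO libraries did not overlap for 21 of 44 genes (47.7%, against 51.2% of all tested rows), 12 of them in the higher direction (27.3%, against 27.8% of all tested rows) and 9 in the lower direction (20.5%, against 23.4%). A lack of overlap is therefore about as common in this set as elsewhere and singles out no gene.

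The promoters of 4 genes are shown because the deleted factors bind DNA: Cd247, Dgka and Txk have the largest differences, and Cd3d is the receptor chain gene with the most motif matches and overlapping groups. Each is the 250 bases before the outermost start listed in the RefSeq promoter table (GRCm38.p6), 5′ to 3′ on the gene's strand. For Cd247, Cd3d and Txk that start lies inside the longer span given for the gene further on. Capitals mark the TCF/LEF core letters CTTTGA or CTTTGT on either strand, so that TCAAAG and ACAAAG count too; both motifs share the letters CTTTG. The windows are chr1:165788431-165788680 (plus strand) for Cd247, chr10:128745085-128745334 (minus strand) for Dgka, chr5:72752778-72753027 (minus strand) for Txk and chr9:44981536-44981785 (plus strand) for Cd3d.
Cd247: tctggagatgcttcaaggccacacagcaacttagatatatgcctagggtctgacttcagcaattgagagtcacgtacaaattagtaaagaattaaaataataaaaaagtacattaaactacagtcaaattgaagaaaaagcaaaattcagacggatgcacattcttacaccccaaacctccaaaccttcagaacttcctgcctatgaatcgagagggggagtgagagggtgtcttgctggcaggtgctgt
Dgka: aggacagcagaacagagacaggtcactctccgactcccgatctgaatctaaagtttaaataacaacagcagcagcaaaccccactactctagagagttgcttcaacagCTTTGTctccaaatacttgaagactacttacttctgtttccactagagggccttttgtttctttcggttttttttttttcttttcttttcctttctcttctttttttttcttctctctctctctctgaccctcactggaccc
Txk: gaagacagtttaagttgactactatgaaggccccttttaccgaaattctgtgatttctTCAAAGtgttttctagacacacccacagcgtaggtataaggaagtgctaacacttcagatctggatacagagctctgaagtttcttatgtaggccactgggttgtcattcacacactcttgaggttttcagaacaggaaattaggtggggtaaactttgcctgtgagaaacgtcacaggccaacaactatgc
Cd3d: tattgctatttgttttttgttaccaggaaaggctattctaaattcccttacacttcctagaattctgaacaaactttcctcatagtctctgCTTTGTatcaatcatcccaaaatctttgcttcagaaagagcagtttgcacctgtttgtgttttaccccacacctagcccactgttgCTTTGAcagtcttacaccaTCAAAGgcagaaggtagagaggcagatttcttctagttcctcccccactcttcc
The Cd247 window held no match. Dgka held 1 match, whose first base lies 142 bases before the start, and Txk held 1 on the other strand, 192 bases before it. Cd3d held 3 matches, at 159, 73 and 54 bases before its start. The table gave a promoter for 36 of the 44 genes, and 13 of these held a match (36.1%), against 27.8% of 27025 genes in the table and 21.3% of 8736 tested rows that had an entry. A match was found in 1 of 8 promoters of genes with both dKO libraries above WT, in 4 of 8 of those with both below, and in 8 of 20 where the groups overlapped. Shares by direction over all tested rows were not determined, so these small counts give no reading by direction. A match describes the letters only.

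Among the receptor chains, Cd247 had the largest difference between groups, although differences between chains were not tested and its interval overlaps that of Cd3g. The receptor's signalling tails are supplied by the CD3 gamma, delta and epsilon chains and the zeta chain. Cd247, which encodes zeta (chromosome 1, 165779952 to 165871153, plus strand), had 175 and 178 FPKM in WT_0 and WT_1 and 236 and 226 FPKM in dKO_0 and dKO_1. Both dKO libraries lay well above both WT libraries. The means were 176 ± 2.03 and 231 ± 7.25 FPKM (SD, n = 2 each), 0.39 apart on the log2 scale (SE 0.0594, limma adjusted p = 0.121). Cd247 passed under 1 of 13 other settings, the limma fit without rows of small RNA genes such as microRNAs and snoRNAs (adjusted p = 0.0472; range over all its settings 0.0472 to 0.575). Annotated genes on the opposite strand, among them Pou2f1, overlap Cd247, and which strand setting was used in counting is not known here.

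The CD3 genes lie side by side on chromosome 9 and had smaller differences. Cd3g (44969572 to 44980431, minus strand) had 644 and 627 FPKM in WT and 723 and 683 in dKO, with both dKO libraries above WT. Cd3e (44998735 to 45009663, minus strand) had 422 and 390 FPKM in WT and 424 and 425 in dKO, where WT_0 nearly reached the dKO libraries. Cd3d (44981769 to 44987052, plus strand) had 318 and 282 FPKM in WT and 292 and 272 in dKO, with the groups overlapping. The log2 differences were 0.14 (95% interval -0.06 to 0.35) for Cd3g, 0.066 (-0.13 to 0.26) for Cd3e and -0.088 (-0.33 to 0.16) for Cd3d, with limma adjusted p-values of 0.406, 0.68 and 0.655. Without WT_0 the Cd3d difference was 0.000102. Genes annotated over Cd3e (Gm48719 and Gm48720) leave its reads uncertain.

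Per length, the order of the chains was the same in all 4 libraries, with Cd3g highest, then Cd3e, Cd3d and Cd247. Set against the mean FPKM of Cd3d, Cd3e and Cd3g, Cd247 stood at 0.379 and 0.411 in WT and 0.493 and 0.491 in dKO. This ratio was formed after the values were seen and has no test.

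Of the costimulatory receptor genes, Cd2 was among the 5 most abundant of the set in every library, and Cd28 was far lower. Cd2, whose adhesion receptor binds CD48 in mice (chromosome 3, 101275908 to 101287939, minus strand), had 522 and 502 FPKM in WT and 615 and 610 in dKO, a difference of 0.26 (SE 0.0678, limma adjusted p = 0.207). Cd28, the receptor for CD80 and CD86, had 62.3 and 62.2 FPKM in WT and 65.6 and 66.7 in dKO. In both genes the dKO libraries lay above WT, by far less for Cd28. Of the 6 receptor and costimulation genes, 5 were higher in dKO, and 6 without WT_0, with a median of 0.11 and 0 called.

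**Figure D3:**
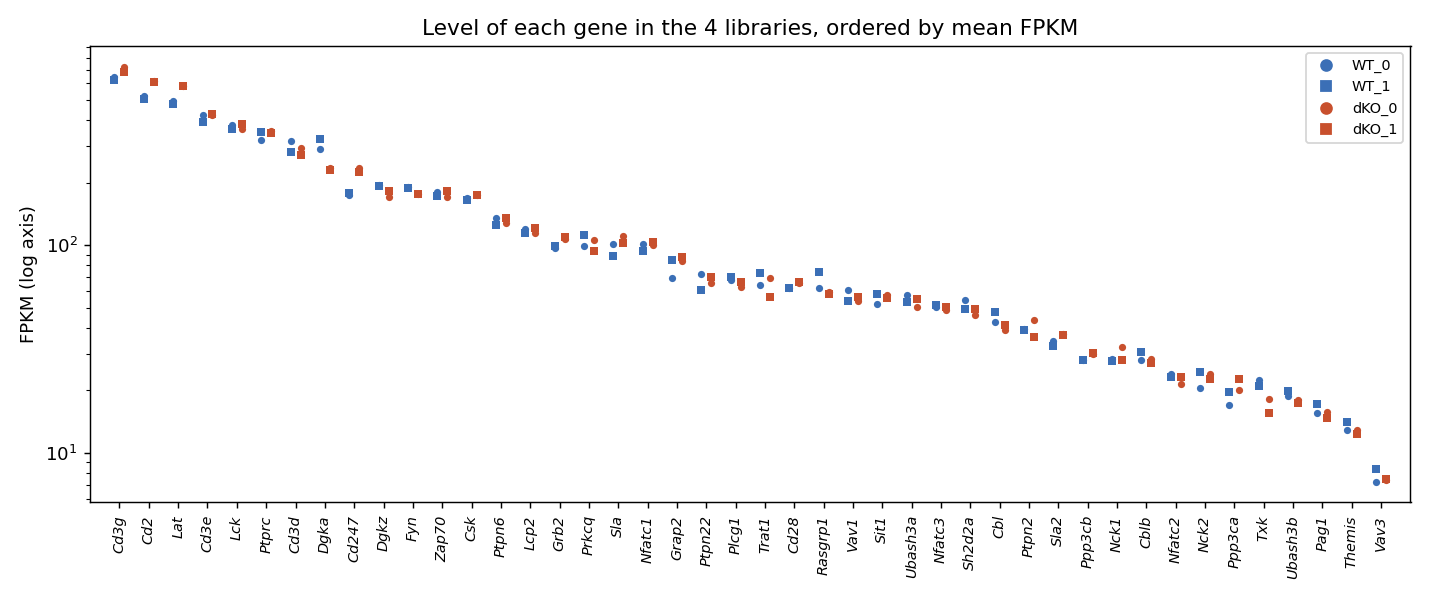
FPKM of each of the 44 genes in WT_0, WT_1 (blue, left) and dKO_0, dKO_1 (red, right) on a log axis, ordered by mean level. Levels run from Cd3g, at 627 to 723 FPKM, to Vav3, at 7.25 to 8.31 FPKM, and the points of most genes nearly coincide.

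The kinases at the top of the cascade had steady transcripts. Lck, which phosphorylates the receptor tails (chromosome 4, 129548344 to 129573641, minus strand), had 377 and 362 FPKM in WT and 364 and 382 in dKO. Zap70, which binds the phosphorylated tails (chromosome 1, 36761798 to 36782821, plus strand), had 180 and 172 FPKM in WT and 171 and 182 in dKO. In both genes the libraries of the groups interleaved. The log2 differences were 0.012 for Lck (95% interval -0.17 to 0.19, limma adjusted p = 0.939) and 0.0043 for Zap70 (-0.18 to 0.18, adjusted p = 0.982). Differences this near 0 have no stable sign, and each changed sign under 4 of 13 other settings.

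The other kinases included Txk, with the lowest log2 difference of the activating class. Fyn, the second Src-family kinase gene of T cells, had 190 and 188 FPKM in WT and 176 and 175 in dKO, with no overlap and little distance. Prkcq, whose protein kinase C theta leads to NF-kappaB, had 98.7 and 112 FPKM in WT and 106 and 93.6 in dKO, with overlap. Txk, a Tec-family kinase gene (chromosome 5, 72695978 to 72752992, minus strand), had 22.4 and 21 FPKM in WT and 18.2 and 15.6 in dKO. Both dKO libraries were below WT for Txk, with means of 21.7 ± 1.03 and 16.9 ± 1.85 FPKM (SD, n = 2 each) and a log2 difference of -0.35 (SE 0.0973, limma adjusted p = 0.223). The pseudogene Gm43717 is annotated over Txk on the opposite strand. Of the 5 kinase genes 2 were higher and 3 lower in dKO by their means, all 5 lower after quantile normalization or median centring and 4 of 5 without WT_1 or without dKO_1, and 0 were called.

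Of the scaffolds and adaptors, Lat was the most abundant and differed most. Lat, the membrane scaffold that Zap70 phosphorylates (chromosome 7, 126363827 to 126369705, minus strand), had 494 and 477 FPKM in WT and 582 and 582 in dKO. Both dKO libraries were above WT, with means of 486 ± 12.2 and 582 ± 0.214 FPKM (SD, n = 2 each), 0.26 apart on the log2 scale (SE 0.0666, limma adjusted p = 0.199). Grb2, which brings the Ras activator Sos to Lat, had 97.2 and 98.4 FPKM in WT and 107 and 109 in dKO, a difference of 0.14 log2 units (limma adjusted p = 0.298). Lcp2, the gene of SLP76, had 119 and 114 FPKM in WT and 114 and 121 in dKO, which overlap. Grap2, whose protein Gads links SLP76 to Lat, had 69 FPKM in WT_0 against 84.6 in WT_1, 83.5 in dKO_0 and 87.9 in dKO_1, so that WT_0 alone was low. Nck1 and Nck2, adaptors to the actin cytoskeleton, had 27.6 to 32.3 and 20.5 to 24.5 FPKM over all libraries, with overlap in both. All 6 adaptor genes were higher in dKO by their means, but 5 of 6 after quantile normalization or median centring, without WT_1 or without dKO_1, where Lcp2 changed sign each time, and 5 of 6 without WT_0, where Nck2 did; 0 were called.

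Enzymes and exchange factors downstream of Lat had slightly lower means in dKO. Plcg1, the phospholipase that makes diacylglycerol and the calcium-releasing messenger, had 67.7 and 69.9 FPKM in WT and 62.9 and 66.3 in dKO. Rasgrp1, a Ras exchange factor that diacylglycerol recruits, had 62.3 and 74.3 FPKM in WT and 59.4 and 58.3 in dKO, and WT_1 alone was high. The Rac exchange factor gene Vav1 had 53.9 to 61 FPKM and Vav3 7.25 to 8.31 FPKM over all libraries, each with overlap. All 4 were lower by their means, and 3 of 4 without WT_0 or without WT_1; the median was -0.073 and 0 were called.

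Calcineurin and NFAT genes, the calcium arm, differed little. Ppp3ca, a catalytic subunit gene of calcineurin, had 16.9 and 19.6 FPKM in WT and 20.1 and 22.7 in dKO, spread enough within groups that the gap between WT_1 and dKO_0 was small. Ppp3cb, another catalytic subunit gene, had 27.9 and 28.1 FPKM in WT and 29.9 and 30.1 in dKO. Of the transcription factors that calcineurin dephosphorylates, Nfatc1 had 93.2 to 104 FPKM, Nfatc2 21.5 to 24 FPKM and Nfatc3 48.9 to 51.7 FPKM over all libraries. The groups overlapped in each of these NFAT genes. By their means 3 of the 5 were higher and 2 lower, with 0 called.

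Among the inhibitory genes, Dgka had the largest difference of the 44. Dgka and Dgkz encode the kinases that remove diacylglycerol and so limit Ras and protein kinase C signals. Dgka (chromosome 10, 128720131 to 128745084, minus strand) had 290 and 323 FPKM in WT and 234 and 231 in dKO. Both dKO libraries lay below both WT libraries, with means of 307 ± 23.2 and 233 ± 2.39 FPKM (SD, n = 2 each) and a log2 difference of -0.39 (SE 0.0776, limma adjusted p = 0.158). The difference kept its sign under all 13 other settings, from -0.47 without WT_0 to -0.32 without WT_1, and passed under none (adjusted p 0.067 to 0.636). In the authors' deposited table its log2 fold change was -0.40, with a p of 0.0083 and a q of 0.170. Pmel, on the opposite strand, overlaps Dgka.

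Dgkz had 195 and 193 FPKM in WT and 171 and 182 in dKO, with the groups apart by a small margin. Per length, Dgka exceeded Dgkz in every library, 1.49 and 1.68 times in WT and 1.37 and 1.27 times in dKO, a ratio formed after the values were seen and not tested.

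The phosphatase genes had near-equal group means, with gaps between libraries of a group. Ptpn6, the gene of SHP1, which dephosphorylates Lck and Zap70, had 135 and 125 FPKM in WT and 127 and 135 in dKO. Ptpn22, whose protein works with Csk, had 72.8 and 61 FPKM in WT and 65.6 and 70.6 in dKO. Ptpn2, which acts on Lck and JAK kinases, had 39.3 and 39.1 FPKM in WT and 43.3 and 36 in dKO. The groups overlapped in each. Csk, the kinase that locks Src-family kinases in their inactive form, had 168 and 165 FPKM in WT and 174 and 175 in dKO. Its membrane anchor gene Pag1 had 14.7 to 17.2 FPKM over all libraries, with overlap.

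Genes for ubiquitin ligases and the Sts proteins were lower in dKO by their means in 4 of 4, with a median difference of -0.10, 0 called, and the same count after quantile normalization or median centring. Cbl, a ligase gene that targets active receptor complexes, had 42.7 and 47.6 FPKM in WT and 39.2 and 41 in dKO. Cblb, whose ligase sets the need for costimulation, had 27.1 to 30.7 FPKM over all libraries. Ubash3a had 50.3 to 57.6 FPKM and Ubash3b 17.4 to 19.9 FPKM; their Sts proteins dampen Zap70 signals. Of these, Cbl and Ubash3b had both dKO libraries below WT. The inhibitory adaptors leaned the other way, with 3 of 3 higher by their means, a median of 0.15 and 0 called; Sit1 changed sign after quantile normalization and without WT_0. Sla, whose adaptor SLAP helps degrade receptor chains, had 102 and 88.3 FPKM in WT and 111 and 103 in dKO. Its relative Sla2 had 34.4 and 32.6 FPKM in WT and 37.4 and 36.9 in dKO, and Sit1, a transmembrane adaptor gene, had 52.2 to 58.1 FPKM over all libraries. In Sla and Sla2 the dKO libraries were above WT.

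Of the genes placed in neither class, Ptprc, which encodes CD45 and can both activate and restrain Lck, had 321 and 349 FPKM in WT and 354 and 348 in dKO. Themis, an adaptor gene of thymocyte selection, had 12.3 to 14 FPKM over all libraries. Sh2d2a, the gene of the Lck-binding adaptor TSAd, had 54.4 and 49.3 FPKM in WT and 46 and 49.3 in dKO. Trat1, a transmembrane adaptor gene associated with the receptor complex, had 63.9 and 73.2 FPKM in WT and 69.5 and 56.2 in dKO, the widest gap between the dKO libraries of these. Only Sh2d2a had no overlap, by a margin under 0.1 FPKM.

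Taking the classes as wholes, activating and inhibitory genes had near-equal medians. The median log2 difference was 0.035 for the 26 activating genes (16 higher, 10 lower), -0.032 for the 14 inhibitory genes (7 higher, 7 lower) and -0.10 for the other 4 (1 higher, 3 lower), beside 0.012 for all tested rows. The activating median was -0.011 after quantile normalization, 0.013 after median centring and 0.015 without WT_1. The inhibitory median was -0.072 and -0.053 under these scalings and -0.049 without dKO_0. That of all tested rows was -0.0057 and -0.0091 under the same scalings. For the other 4 genes the median was -0.031 without WT_1 and -0.016 without dKO_1. In all 24 of 44 genes were higher in dKO (54.5%, against 52.8% of all tested rows). After quantile normalization 17 of 44 were higher, and the share of all tested rows was not determined there. Summed FPKM of the activating genes was 4259 and 4143 in WT and 4537 and 4500 in dKO, and of the inhibitory genes 1252 and 1253 in WT and 1172 and 1181 in dKO. The ratio of the inhibitory to the activating sum was 0.294 and 0.302 in WT and 0.258 and 0.262 in dKO, so the libraries of the groups did not overlap. With a few abundant genes left out, the libraries of the groups overlapped in each sum. Without Dgka, the inhibitory sum was 961 and 930 FPKM in WT and 938 and 950 in dKO; without Cd3g, Cd2, Lat and Cd247, the activating sum was 2424 and 2359 FPKM in WT and 2381 and 2400 in dKO. The genes left out were chosen after their values were seen, and no test was made. The overlap without them can follow from that choice alone and does not locate the gap.

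**Figure D4:**
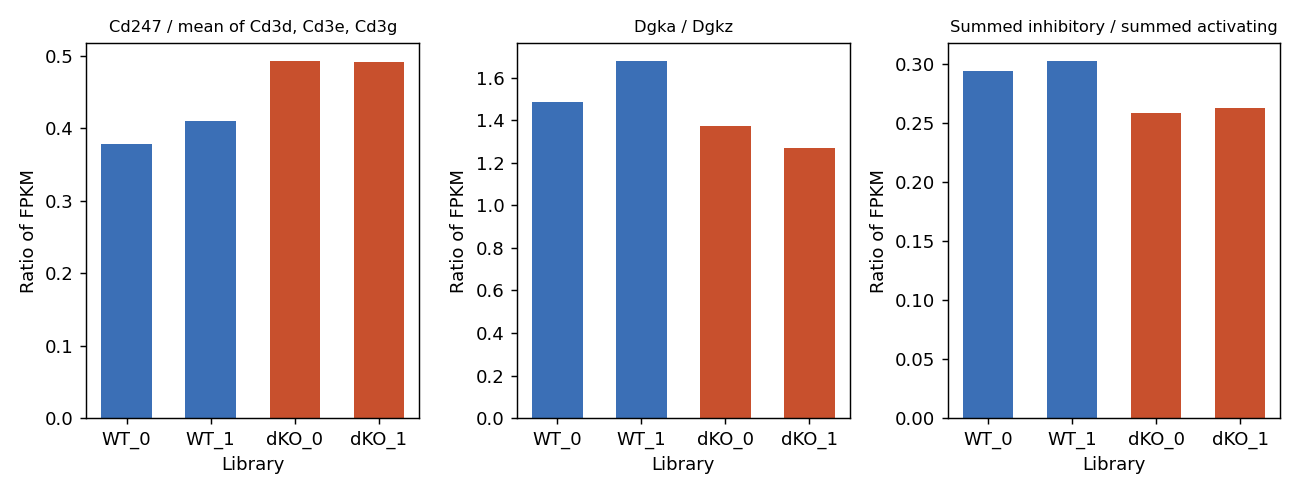
Ratios of FPKM in each library (bars from 0; blue WT, red dKO): Cd247 to the mean of Cd3d, Cd3e and Cd3g, Dgka to Dgkz, and the summed inhibitory to the summed activating genes. The first is higher in both dKO libraries (0.493 and 0.491) than in WT (0.379 and 0.411), and the other ratios are lower in both.

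A wider list of receptor pathway genes outside the 44 also gave no call by limma. It was drawn up with earlier results of these data known. Its counts of small unadjusted p-values can follow from that choice and are only described. Of 38 further activating genes 0 were called (Akt1 higher, Itpkb and Pik3r1 lower, had p-values under 0.05 before adjustment), with 19 higher, 19 lower and a median of -0.0057. Of 28 further inhibitory genes 0 were called (8 that were higher and 4 that were lower had such p-values, where 9.64% and 7.08% of all tested rows did), with 15 higher, 13 lower and a median of 0.024. Dok1, an adaptor gene that recruits the Ras inhibitor RasGAP, had 30.7 and 30.1 FPKM in WT and 42.8 and 45.1 in dKO, 0.52 higher on the log2 scale (SE 0.0595, limma adjusted p = 0.0877). It passed without small RNA rows, and its q in the authors' deposited table was 0.0566. Higher by less were the lipid phosphatase gene Inpp5d (0.24), the MAP kinase phosphatase gene Ptpn7 (0.31) and the receptor gene Cd6 (0.21, log2 differences).

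The 2 further genes with a q under 0.05 in the authors' deposited table were lower in dKO. Pdcd1, the gene of the inhibitory receptor PD-1, had 87.1 and 57.8 FPKM in WT and 46.7 and 40.9 in dKO (limma adjusted p = 0.251; q of 0.00365 in the authors' deposited table). Tnfaip3, the gene of the NF-kappaB inhibitor A20, had 40.8 and 53.7 FPKM in WT and 33.6 and 30.6 in dKO (limma adjusted p = 0.221; q of 0.0114 in the authors' deposited table). In both, the WT libraries lay far apart from each other: limma called Pdcd1 without WT_1 and Tnfaip3, with the costimulator gene Icos, without WT_0. Rasa2, a Ras GTPase-activating protein gene (-0.25), and Spry1, a signalling inhibitor gene (-0.31), had lower log2 values and did not pass. Among activating genes, Itpkb (-0.20), an inositol phosphate kinase gene, Pik3r1 (-0.29), a regulatory subunit gene of phosphoinositide kinase, Tespa1 (-0.15) and Cd4 (-0.14) had the lowest p-values of the lower genes, and Akt1 (0.15), Icos (0.39), Ppp3cc (0.18) and Tec (0.23) of the higher ones, as log2 differences; none passed.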

How the data were processed

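RNA of sorted Treg cells was sequenced in 2 WT and 2 dKO libraries. The authors used FastQC, TopHat2 2.1.0 and Cuffdiff 2.2.1 with the mm10 genome, per the submitters' processing notes; no source used here gives the annotation, the strand setting or filters. Deposited by the authors were FPKM per library and per group, with their log2 fold changes and p-values and q-values from Cuffdiff. Library columns end in 0 or 1 and the titles count from 1, so each column was tied to its group only.

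FPKM are not counts and no count test was run. Values were taken as log2(FPKM + 1), which understates changes of low genes. Limma 3.58.1 in R 4.3.3 (eBayes with an intensity trend, two-sided, no covariate) tested all rows with at least 1 FPKM in 2 libraries, with Benjamini-Hochberg adjustment over 11595 rows, a threshold of 0.05, 2 residual and 2.31 prior degrees of freedom. The fit was tested on simulated data. The members and gene lists were chosen with earlier results of these data known. Named in full were members called by limma or in the authors' table, those with groups apart and a difference of at least 0.4 (0 of the 44 members met these), and Cd3d, Cd3e, Cd3g, Cd247, Lck, Zap70 and Lat; the full statistics of Cd2, Grb2, Dgka and Txk were added after their values were seen. Alternatives changed the pseudocount (0.1), the filter (none, or 5 FPKM), the scaling, the trend, small RNA rows, a replicate block and each library.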

Additional observations from a re-analysis of the deposited data

How the results depend on the processing

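The count of 0 called members held under 12 of 13 alternatives; without small RNA rows it was 1 (Cd247), when 186 rows were called in all, and 1 further pathway gene (Dok1). Calls over all rows, 40 as reported, were 16 with no filter on low values, and 2 to 217 with a library left out (177 when WT_0 was left out, 217 for WT_1, and 2 for either dKO library). Further pathway genes called ranged from 0 to 2 there. Fits without a library leave 1 in a group, assumed to vary like the other group.

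The median of the inhibitory members was -0.072 after quantile normalization, beside -0.0057 for all tested rows. That of the 4 members in neither class ranged from -0.099 to -0.016 with a library left out. Signs near 0 changed. Lck and Zap70 had differences of -0.0497 and -0.0626 after quantile normalization and -0.0088 and -0.0169 after median centring. With a library left out, Lck ranged from -0.0227 to 0.0476, Zap70 from -0.043 to 0.0516 and Cd3d from -0.177 to 0.000102. Quantile normalization kept the sign of 37 of 44 members and median centring of 39.

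With the column suffix as a replicate block, 7 rows and 0 members were called. Deviations of libraries with the same suffix correlated at -0.11 over the tested rows (2 pairs). This gave no sign of a shared deviation, but with 2 pairs it cannot exclude that the libraries were paired. A block with crossed suffixes, added after seeing the data, called 22 rows and 0 members. Absolute depth is unknown, so the precision given rests on the spread between libraries.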
